A study of Mus musculus with 21 samples.

Results

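Growth hormone reaches the liver in pulses in male mice and more evenly in females. The hormone binds its receptor on hepatocytes, the receptor-bound kinase JAK2 phosphorylates the transcription factors STAT5A and STAT5B, and these enter the nucleus and bind DNA. Much of the difference between male and female liver expression follows that rhythm: pulses keep a set of male-biased genes high, several of them for secreted urinary proteins and steroid- or lipid-metabolizing enzymes, and hold a set of female-biased genes down. 10 genes known for this dependence were followed here in liver RNA: the male-biased genes *Selenbp2*, *Slco1a1*, *Elovl3*, *Hsd3b5*, *Mup3*, *Mup20* and *Cyp4a12a*, the female-biased gene *Cux2*, the feedback inhibitor *Socs2* and the repressor *Bcl6*. They were chosen by symbol, as the 10 rows of a table of 46078 genes whose identifiers carry those symbols in GENCODE M21, and all 10 passed the filter on low counts that left 14370 genes for testing. Their levels were known from earlier results of these data when they were chosen, so their values are given below as a description and without p-values.

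The data were 21 mouse liver libraries from 6 groups, defined by 2 genotypes and 3 diets. KO animals lacked *Cse* (symbol *Cth*), the gene of cystathionine γ-lyase, which makes cysteine from cystathionine. Labels give the comparison genotype as WT. The study describes its control animals as carriers of 1 intact copy, so WT is kept here only as the labels' name. Animals ate an amino-acid-defined control diet (CTR), the same diet lacking cysteine (noCys) or the same diet lacking tryptophan (noTrp), with the remaining amino acids raised in proportion. Per the study, all animals were calorie-restricted males, at least 9 weeks old, on a mixed 129 and C57BL/6 background, and liver was taken 2 days after the switch from the control diet. The groups held 3 WT CTR, 4 KO CTR, 4 WT noCys, 3 KO noCys, 2 WT noTrp and 5 KO noTrp libraries, with 8889951 to 27230852 counts each. *Cth* was at 108 to 452 CPM (counts scaled to library size) in the 9 WT libraries and at 6.34 to 15 CPM in the 12 KO libraries. All libraries expressed the Y-linked genes *Ddx3y*, *Kdm5d*, *Uty* and *Eif2s3y* (at least 7.6 CPM), and the female-specific *Xist* reached at most 1.58 CPM. The hepatocyte genes *Alb* and *Ttr* were among 7 markers whose summed level was between 43900 and 95300 CPM in the 21 libraries. In bulk tissue, fewer cells of a type and less RNA per cell cannot be told apart.

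STAT5 dimers bind the palindrome TTCNNNGAA (N is any base), which reads the same on both strands. The 250 bases before the transcription start were available from RefSeq on GRCm38.p6 for 6 of the 10 genes, some with more than 1 start, giving 8 windows. The motif was in 2 of the 8, both of *Bcl6*, and in 2306 of the 32851 windows of all genes (7.02%). The windows of *Bcl6*, of *Selenbp2* and of *Slco1a1* are shown because *Bcl6* held the motif and the other 2 are male-biased genes whose windows did not. Capitals mark the motif, and each window is read on the gene's own strand, 5′ to 3′.
Bcl6, chr16:23988853-23989102, minus strand: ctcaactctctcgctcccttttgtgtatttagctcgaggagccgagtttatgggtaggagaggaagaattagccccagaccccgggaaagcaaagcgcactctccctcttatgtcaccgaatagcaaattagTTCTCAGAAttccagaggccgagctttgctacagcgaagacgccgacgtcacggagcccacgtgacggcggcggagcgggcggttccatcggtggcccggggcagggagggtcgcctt
Bcl6, second start, chr16:23981284-23981533, minus strand: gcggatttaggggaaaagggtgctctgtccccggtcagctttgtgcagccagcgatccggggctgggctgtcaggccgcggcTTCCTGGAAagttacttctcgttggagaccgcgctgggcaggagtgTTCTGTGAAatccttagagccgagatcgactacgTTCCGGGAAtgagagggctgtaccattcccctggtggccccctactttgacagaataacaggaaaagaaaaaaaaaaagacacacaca
Selenbp2, chr3:94693323-94693572, plus strand: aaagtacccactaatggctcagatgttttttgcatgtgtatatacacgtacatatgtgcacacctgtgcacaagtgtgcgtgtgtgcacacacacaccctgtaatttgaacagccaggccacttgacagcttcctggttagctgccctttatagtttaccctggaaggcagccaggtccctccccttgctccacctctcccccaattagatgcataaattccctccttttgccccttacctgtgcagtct
Slco1a1, chr6:141946963-141947212, minus strand: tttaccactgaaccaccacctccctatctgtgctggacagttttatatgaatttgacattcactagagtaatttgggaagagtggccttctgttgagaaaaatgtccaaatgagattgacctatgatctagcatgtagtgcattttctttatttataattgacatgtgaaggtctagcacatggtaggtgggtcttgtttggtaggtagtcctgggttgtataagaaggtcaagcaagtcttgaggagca
The upstream *Bcl6* window held 1 copy, TTCTCAGAA, beginning 118 bases before the start. The window of the second start, which lies within the span of the gene, held 3 copies, TTCCTGGAA, TTCTGTGAA and TTCCGGGAA, beginning 168, 122 and 88 bases before it. No copy in the *Selenbp2* and *Slco1a1* windows says only that these letters are not in these 250 bases. None of these matches was tested for binding.

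**Figure D1:**
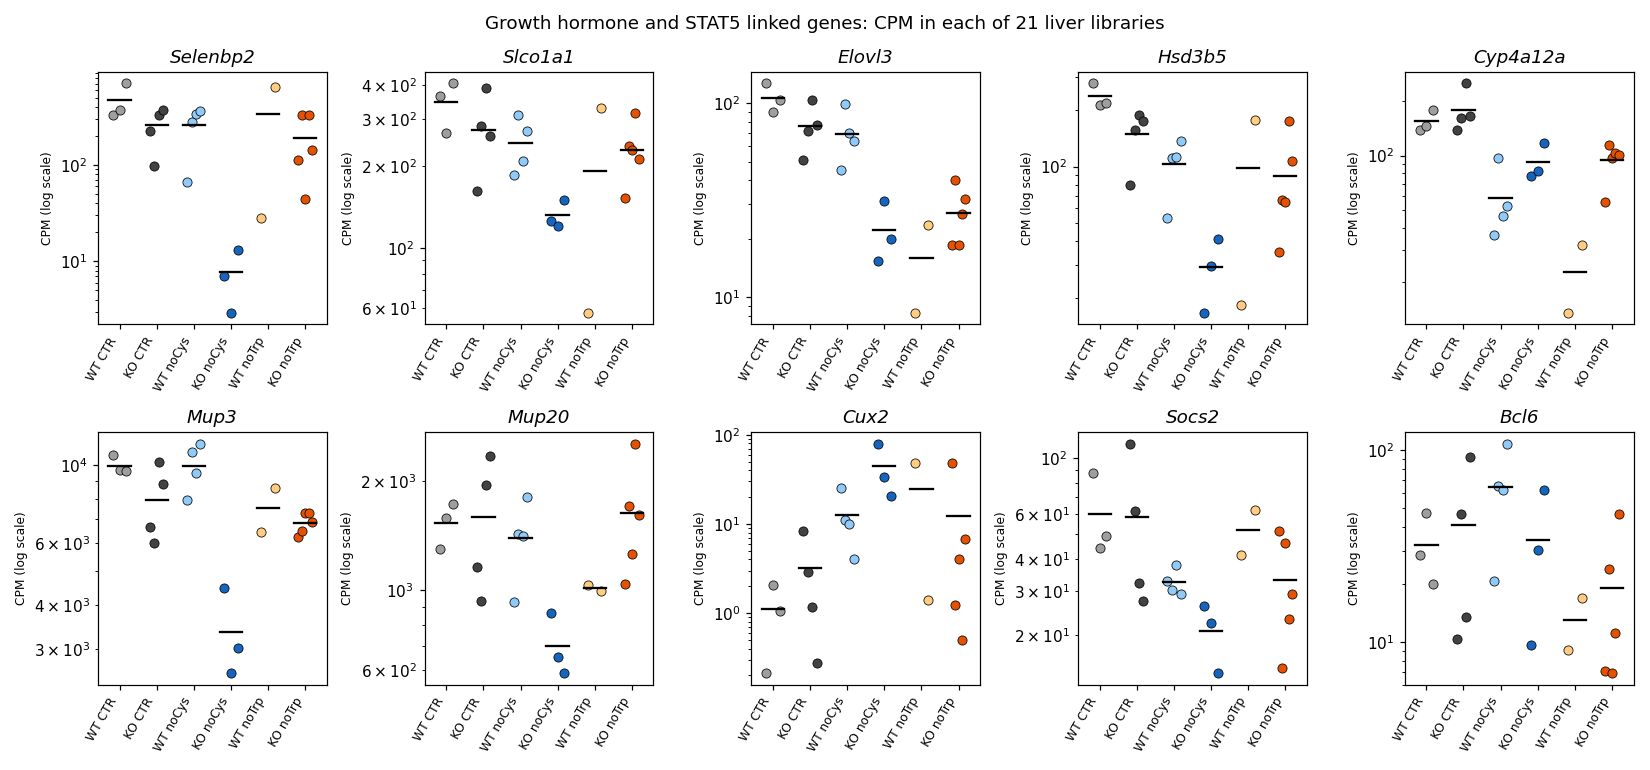
CPM of each of the 10 genes (vertical axis, logarithmic) in each library of the 6 groups (horizontal axis); points are libraries and bars are group means. The 3 KO noCys points of *Selenbp2*, between 2.91 and 13.2 CPM, lie below all 18 other libraries, and the *Cux2* panel runs from 0.212 to 79.5 CPM.

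The first question the design asks is what happened to these genes when dietary cysteine was removed from animals that cannot make it. Compared with WT animals on the same diet, KO noCys livers had lower mean levels of 6 of the 7 male-biased genes, and of *Socs2* and *Bcl6*, and higher means of *Cyp4a12a* and *Cux2*. The groups overlapped for *Bcl6*, *Cyp4a12a* and *Cux2*, and of the 10 only *Selenbp2*, *Elovl3*, *Hsd3b5*, *Mup3* and *Mup20* were called. Within KO animals, 9 of the 10 genes were lower without cysteine than on the control diet and *Cux2* was higher. The sign for *Bcl6* (-0.24) was not stable, being 0.50 without KO CTR replicate 4, 0.18 without KO noCys replicate 1 and 0.42 by limma-voom. The lowest group mean among the 6 groups was in KO noCys for 6 genes (*Selenbp2*, *Slco1a1*, *Hsd3b5*, *Mup3*, *Mup20* and *Socs2*), in WT noTrp for 3 (*Elovl3*, *Cyp4a12a* and *Bcl6*) and in WT CTR for *Cux2*.

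*Selenbp2*, which encodes a selenium-binding protein of male liver, had the largest fold difference of the 10. Its levels in KO noCys were 6.99, 2.91 and 13.2 CPM in replicates 1, 3 and 4. In WT noCys replicates 1 to 4 they were 67.0, 278.8, 340.5 and 365 CPM. KO CTR held 227, 98.0, 333.6 and 374.1 CPM in replicates 1 to 4, and WT CTR 327.6, 375.2 and 704.3 CPM in replicates 1 to 3. Every KO noCys library was therefore below every library of the other groups, with a log2 fold change (± SE, here and below) of -5.10 ± 0.98 against WT noCys and -5.08 ± 0.98 against KO CTR. The noTrp groups spread widely: 27.8 and 647.2 CPM in WT noTrp replicates 1 and 2, and 44.9 to 332.6 CPM with a median of 144 CPM in the 5 KO noTrp libraries. No other pair of neighbouring groups in the order of means was separated, the 5 groups above KO noCys all overlapping their neighbours.

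*Hsd3b5*, a male-specific steroid dehydrogenase, was at 16.7, 29.8 and 41.3 CPM in KO noCys and at 53.3, 110.4, 111.9 and 137.3 CPM in WT noCys. KO CTR held 79.8, 157.2, 188.1 and 174.1 CPM, and WT CTR 276.6, 212.8 and 218.2 CPM. KO noCys lay below all 3 of these groups, and the log2 fold changes were -1.81 ± 0.58 against WT noCys and -2.34 ± 0.59 against KO CTR. It was also lower in every WT noCys library than in any WT CTR library (-1.19 ± 0.54). In WT noTrp the 2 libraries were at 18.4 and 177.4 CPM, and in KO noTrp the 5 were at 35.0, 66.3, 64.8, 173.7 and 107 CPM, so KO noCys and KO noTrp overlapped (-1.60 ± 0.56).

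*Elovl3* encodes a fatty acid elongase of very long chains. It stood at 15.2, 31.4 and 19.9 CPM in KO noCys against 45.3, 99.2, 70.4 and 64.1 CPM in WT noCys, with no overlap (-1.63 ± 0.35). Its values were 50.8, 72.1, 104.3 and 77.1 CPM in KO CTR and 126.8, 90.5 and 103.9 CPM in WT CTR. The noTrp libraries held 8.25 and 23.5 CPM in WT noTrp and 18.5, 40.1, 18.5, 26.9 and 31.9 CPM in KO noTrp, so that *Elovl3* was low on both depleted diets in KO and, in WT, lower without tryptophan than without cysteine. The log2 fold changes were -2.76 ± 0.45 for WT noTrp and -1.49 ± 0.30 for KO noTrp, each against its own control diet and without overlap, and -0.27 ± 0.33 for KO noCys against KO noTrp, where the ranges overlapped. Without WT noTrp replicate 1 or 2 the WT value was -2.19 or -3.69.

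*Mup3* and *Mup20* encode major urinary proteins, small lipocalins that the liver secretes and that carry pheromones in male urine. *Mup3* was the most abundant of the 10 per length of transcript, at 9313 RPKM (reads scaled for exon length and depth) in WT CTR, followed by *Mup20* at 1653 RPKM, and the other 8 ranged there from 0.111 RPKM (*Cux2*) to 206.5 RPKM (*Selenbp2*). *Mup3* stood at 4460, 2563 and 3024 CPM in KO noCys and at 7944, 10880, 9485 and 11480 CPM in WT noCys. The other 4 groups spanned 5998 to 10630 CPM, so KO noCys lay below every other library (-1.57 ± 0.20 against WT noCys, -1.24 ± 0.20 against KO CTR and -1.03 ± 0.19 against KO noTrp). WT animals showed no such difference without cysteine, with 9947 ± 1576 CPM (SD, n = 4) in WT noCys and 9946 ± 591 CPM (SD, n = 3) in WT CTR. *Mup20* was at 862.6, 652.6 and 588.8 CPM in KO noCys against 925.7 to 1813 CPM in WT noCys, 932.1 to 2349 CPM in KO CTR and 1041 to 2541 CPM in KO noTrp. It too was below every library of those groups, with log2 fold changes of -0.99 ± 0.30, -1.19 ± 0.31 and -1.22 ± 0.30.

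*Slco1a1*, an organic anion transporter of the hepatocyte membrane, was at 125.5, 120.8 and 150.8 CPM in KO noCys, 185.2, 309.2, 208.5 and 269.1 CPM in WT noCys and 161.9 to 390.2 CPM in KO CTR. The KO noCys range was below those of both comparison groups (-0.88 ± 0.39 and -1.05 ± 0.39). The single lowest library of all 21 was WT noTrp replicate 1, at 57.4 CPM, whereas WT noTrp replicate 2 held 327.5 CPM.

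*Cyp4a12a*, a fatty acid ω-hydroxylase of male liver, differed from the other male-biased genes. WT noCys held 36.5, 96.6, 46.5 and 52.3 CPM, below the 138.3, 145.6 and 179.5 CPM of WT CTR (-1.42 ± 0.31). WT noTrp was lower still at 13.5 and 32.2 CPM (-2.76 ± 0.42 against WT CTR, and -2.26 or -3.51 without replicate 1 or 2). KO noCys, at 77.6, 82.1 and 117 CPM, overlapped WT noCys (0.68 ± 0.31) and lay below KO CTR at 138.5 to 251 CPM (-0.96 ± 0.32). KO noTrp held 55.3 to 114.1 CPM, above both WT noTrp libraries (2.04 ± 0.39, and 1.54 or 2.80 without WT noTrp replicate 1 or 2) and below KO CTR (-0.93 ± 0.27). Both depleted diets thus went with lower *Cyp4a12a* in both genotypes, and on each depleted diet the KO mean was above the WT mean.

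*Cux2* encodes a homeodomain repressor that is normally low in male liver. Its levels in WT CTR were 0.212, 2.09 and 1.05 CPM, and in KO CTR 8.42, 2.86, 1.18 and 0.274 CPM. In KO noCys they were 79.5, 33.3 and 20.4 CPM, above every control-diet library (3.75 ± 1.15 against KO CTR). WT noCys, at 25.3, 11.2, 9.97 and 4.08 CPM, was above all of WT CTR (3.40 ± 1.48) and overlapped KO noCys (1.79 ± 1.04, and 1.09 without KO noCys replicate 1 or 2.43 without WT noCys replicate 1). The noTrp groups each held 1 library at the level of KO noCys, WT noTrp replicate 1 at 48.3 CPM and KO noTrp replicate 1 at 48.4 CPM, beside values of 1.42 CPM in WT noTrp replicate 2 and 0.494 to 6.79 CPM in the other 4 KO noTrp libraries. The group mean of *Cux2* therefore rests on single libraries in both noTrp groups, and none of the neighbouring groups in its order of means was separated.

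*Socs2*, a direct STAT5 target whose product damps the receptor, was at 26.2, 22.4 and 14.2 CPM in KO noCys. It lay between 29.2 and 37.9 CPM in WT noCys and between 27.4 and 114 CPM in KO CTR, so KO noCys was below both (-0.65 ± 0.44 and -1.51 ± 0.44, the former -0.43 without KO noCys replicate 4 and the latter -0.97 without KO CTR replicate 1). WT noCys was in turn below WT CTR, whose libraries held 87.1, 44.1 and 49.5 CPM (-0.89 ± 0.42, and -0.53 without WT CTR replicate 1). *Bcl6*, a zinc-finger repressor that STAT5 represses and that shares DNA sites with it, overlapped between the groups in all 3 KO noCys comparisons. Its KO noCys libraries held 9.70, 30.1 and 62.0 CPM.

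**Figure D2:**
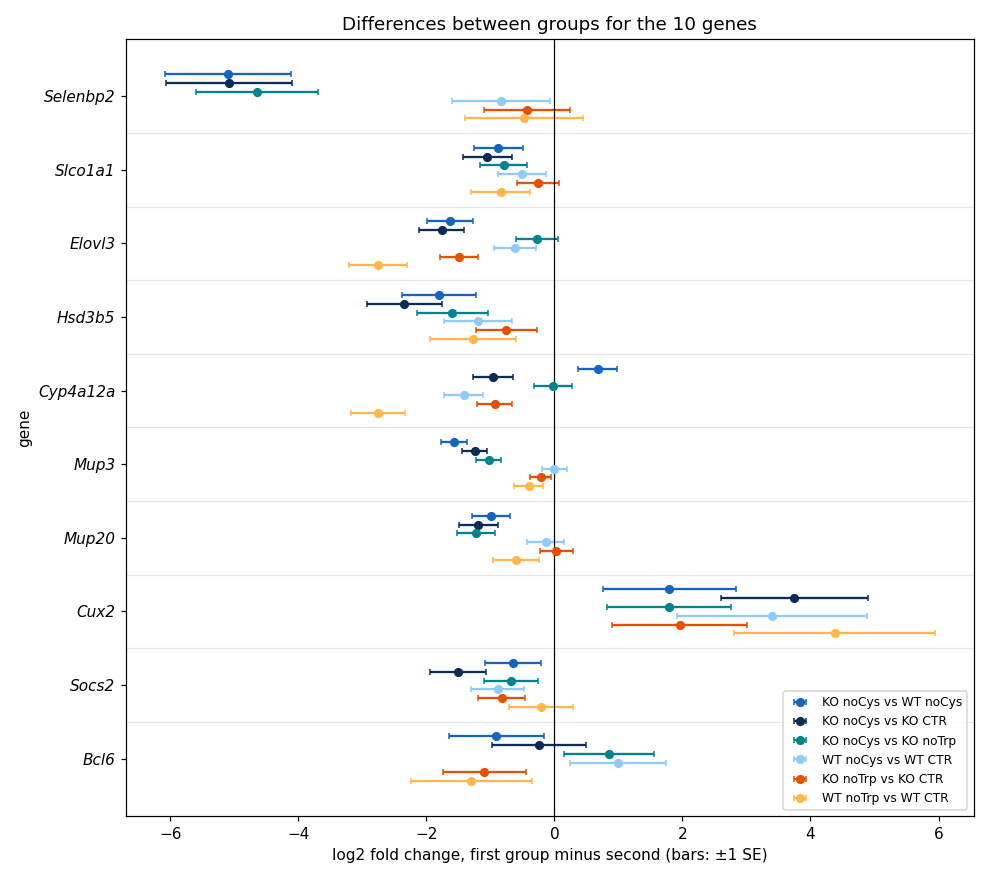
log2 fold change ± SE (horizontal axis) of the 10 genes (vertical axis) in 6 comparisons, each the first group minus the second. The 3 KO noCys comparisons of *Selenbp2* lie at -5.10, -5.08 and -4.65, while *Elovl3* and *Cyp4a12a* reach their lowest values, -2.76 each, in WT noTrp against WT CTR.

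The counts over the 10 genes are given beside the share of all genes called. In KO noCys against WT noCys, 5 were called lower at an adjusted p under 0.05 and none higher, where 13.4% of all tested genes were called lower and 14.8% higher, and 7 were lower in every KO noCys library (18.1% of all genes, with 19.4% higher in every one). Without KO noCys replicate 3 or WT noCys replicate 4, 3 of the 10 were called, while calls over all genes went from 4055 to 2358 or 3630. Against KO CTR, 7 were called lower and 1 higher (9.59% and 10.6% of all genes), and 8 and 1 did not overlap (13.2% and 15.4%). Without KO noCys replicate 3, 4 were called, and calls over all genes went from 2906 to 1379. Against KO noTrp, *Selenbp2*, *Mup3* and *Mup20* were called lower and none higher (6.75% and 7.17%), and 4 lay wholly lower and none higher (9.55% and 10%). Without KO noTrp replicate 1, 5 were called, with 2020 in place of 2000 calls over all genes. These shares describe genes chosen with such results known and nothing is read from them. The median log2 fold change of the 10 was -0.95 against WT noCys, -1.22 against KO CTR and -0.74 against KO noTrp, where the medians of all tested genes were -0.02, 0.00 and 0.01. The 3 comparisons share the KO noCys libraries.

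In the other comparisons fewer of the 10 were called. Between KO CTR and WT CTR none was called (0.251% of all genes were called lower and 0.0696% higher, 0.32% in all), and *Hsd3b5* alone did not overlap, being lower (5.53% of all genes lower and 5.39% higher). WT noCys against WT CTR had *Cyp4a12a* called lower (0.271% lower, 0.39% higher and 0.661% in all), with 3 genes wholly lower and *Cux2* wholly higher (7.24% and 9.15%). WT noTrp against WT CTR had *Elovl3* and *Cyp4a12a* called lower (1.5% lower and 1.7% higher), with 6 wholly lower and none higher (15.3% each way). KO noTrp against KO CTR had *Elovl3* called lower (1.09% lower, 0.779% higher and 1.87% in all), with *Elovl3* and *Cyp4a12a* wholly lower and none higher (3.15% and 3.17%). KO noTrp against WT noTrp had *Cyp4a12a* called higher (0.125% lower, 0.0696% higher and 0.195% in all), with *Cyp4a12a* and *Mup20* wholly higher and none lower (4.98% and 4.97%). The change on removing cysteine was compared between the genotypes in 1 model: *Selenbp2* (-4.24 ± 1.20) and *Mup3* (-1.24 ± 0.27) were called lower in KO and none higher (3.88% and 3.56% of all genes, 7.44% in all), and for *Cux2* the difference was 0.35 with an SE several times as large.

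The 10 genes also varied among animals of the same group. The within-group SD on the log2 scale was 1.91 for *Cux2*, 1.30 for *Selenbp2* and 1.15 for *Bcl6*, each above that of more than 99 in 100 tested genes (percentiles 99.9, 99.6 and 99.4), and 0.87 for *Hsd3b5* (percentile 97.8), where the median gene had 0.26. *Mup3*, at 0.26, was near that median. In WT noTrp the higher of the 2 libraries exceeded the lower by 23.3 times for *Selenbp2*, 34.0 times for *Cux2*, 9.65 times for *Hsd3b5* and 5.71 times for *Slco1a1*, with replicate 1 the higher one for *Cux2* and the lower one for the other 3.

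Within groups, libraries with high *Cux2* had low levels of several male-biased genes, a pattern noticed after the values were seen. The library with the highest *Cux2* had the lowest *Hsd3b5* in all 6 groups, as did 0.223% of all tested genes. It had the lowest *Slco1a1*, *Elovl3* and *Cyp4a12a* in 5 of 6 groups each (2.45% of genes reached at least 5), the lowest *Bcl6* in 4 (11.7%), the lowest *Mup3* in 3 (32.1%) and the lowest *Selenbp2*, *Mup20* and *Socs2* in 2 (61.6%). It had the highest *Mup20* in 2 groups, the highest *Socs2* in 3 and the highest *Mup3* and *Bcl6* in 1 each. In KO CTR, for example, replicate 1 had 8.42 CPM of *Cux2* and 79.8 CPM of *Hsd3b5*, and replicate 4 had 0.274 and 174.1 CPM. That library was replicate 1 in 5 of the 6 groups, and batches and sampling times are not given in the sources used here.

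**Figure D3:**
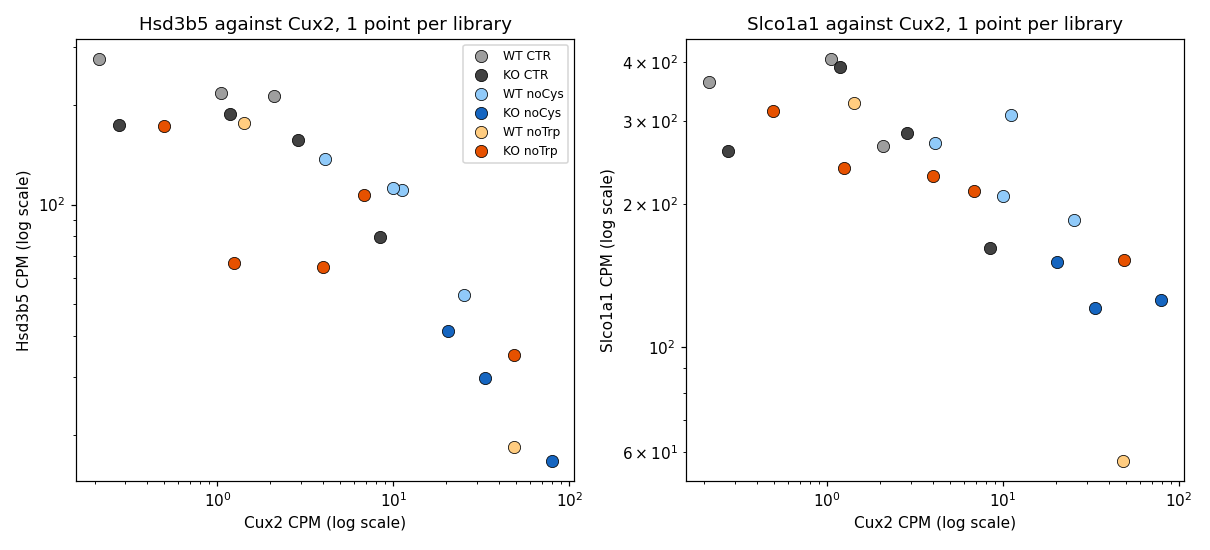
*Hsd3b5* (left) and *Slco1a1* (right) CPM against *Cux2* CPM, 1 point per library, both axes logarithmic, coloured by group. The libraries at 48.3 CPM of *Cux2* (WT noTrp replicate 1) and 79.5 CPM (KO noCys replicate 1) hold 18.4 and 16.7 CPM of *Hsd3b5*, the lowest of the 21 being the latter.

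Other genes of the pathway were read from 4 lists with 70 genes in all, of which 58 were tested: receptor signalling and its brakes (17), genes induced by growth hormone in both sexes (7, of which *Cish* is also in the first list), male-biased genes (22 of 23) and female-biased genes (13 of 24). None of the 10 genes above is in them. *Serpina12*, *Serpina4-ps1*, *Cyp2b9* and *Sult2a7*, already named with values in an earlier account of these data, were left off the lists. In KO noCys against WT noCys, 22 of the 58 fell and 1 rose by edgeR's quasi-likelihood test at an adjusted p under 0.05 (39.7%, where 28.2% of all tested genes were called), with a median log2 fold change of -0.60 against -0.02 for all genes. By list, 5 of 17, 4 of 7, 8 of 22 and 5 of 13 fell, and the 1 that rose was female-biased. With scaling by library totals alone, 7 of these 23 calls were lost (*Jak2*, *Socs7*, *Serpina3n*, *Cyp2d9*, *Obp2a*, *Ntrk2* and *Rtn4*, edgeR adjusted p 0.0552 to 0.126). Against KO CTR, 17 of the 58 fell and 2 rose (32.8%, where 20.2% of all tested genes were called), and against KO noTrp 12 fell and 2 rose (24.1%, against 13.9%). The same KO noCys libraries enter all 3 comparisons. The lists were also chosen with earlier results of these data known, so these calls and shares are a description. Without KO noCys replicate 3 the list calls were 13, 7 and 4, and calls over all genes went from 4055 to 2358, from 2906 to 1379 and from 2000 to 570.

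Among signalling genes, *Ghr*, the growth hormone receptor, was at 209.8, 153.7 and 195.3 CPM in KO noCys, at 428.9, 399.2, 375.3 and 473.7 CPM in WT noCys and at 387.6 to 420.9 CPM in KO CTR. No other library of the 21 was below 277 CPM. *Ghr* fell against WT noCys (-1.17 ± 0.13, adjusted p = 2.96e-06), KO CTR (-1.12 ± 0.13, adjusted p = 7.77e-06) and KO noTrp (-0.87 ± 0.12, adjusted p = 0.000138) by edgeR's quasi-likelihood test, and its change without cysteine differed between genotypes (-0.92 ± 0.18, adjusted p = 0.00393). The receptor's kinase gene *Jak2* fell to 7.67, 8.15 and 8.36 CPM from 11.3 to 13.9 CPM in WT noCys (-0.60 ± 0.18, adjusted p = 0.016 by the same edgeR test). *Stat5a* (-0.10 ± 0.18) and *Stat5b* (0.01 ± 0.13) were not called, and *Stat5b* was at 38.7 to 44.0 CPM in KO noCys and 36.4 to 46.1 CPM in WT noCys. Of the brakes, *Socs1* (-1.34 ± 0.43), *Socs7* (-0.61 ± 0.18) and *Sirpa* (-0.90 ± 0.21), the last for a receptor that recruits phosphatases, fell as well. Without KO noCys replicate 3 the calls of *Jak2* (adjusted p = 0.0572 by edgeR), *Socs1* (0.147) and *Socs7* (0.0516) were lost. *Cish*, a STAT5 target that blocks its docking, was called only against KO CTR (-2.24 ± 0.77, adjusted p = 0.0447 by edgeR), and without KO CTR replicate 1 the value was -1.30 and the adjusted p 0.214.

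Of the genes induced in both sexes, *Igf1*, the main circulating mediator of growth hormone, was at 639 ± 126 CPM (SD, n = 3) in KO noCys and 965 ± 174 CPM (SD, n = 4) in WT noCys (-0.60 ± 0.15, edgeR adjusted p = 0.00617, or 0.0567 without KO noCys replicate 3). *Igfals*, whose product holds IGF1 in the serum complex, was at 98.9, 56.0 and 73.6 CPM against 123.8 to 134.1 CPM (-0.76 ± 0.15, edgeR adjusted p = 0.000891). The serpin gene *Serpina3k* fell by 0.67 on the log2 scale. Its relative *Serpina3n* was at the threshold (-0.75 ± 0.28, edgeR adjusted p = 0.04999), with overlapping groups, and its call was lost in 16 of the 21 fits that left out a library and with RLE factors or library totals. Against KO CTR, *Igf1* was not among the 4 called (*Igfals*, *Cish*, *Onecut1* and *Serpina3k*, all lower).

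The male-biased genes that fell against WT noCys were led by the serpin *Serpina1e* (-4.65 ± 1.12), the complement gene *C6* (-1.82 ± 0.26), the NADPH oxidase gene *Nox4* (-1.21 ± 0.16) and *Susd4* (-1.10 ± 0.29), a complement regulator. The odorant-binding *Obp2a* was called (-1.95 ± 0.71, edgeR adjusted p = 0.0464), but its groups overlapped and the call was lost in 12 of the 21 fits that left out a library. *C6* was at 71.3, 71.7 and 70.8 CPM in KO noCys and between 224.4 and 300.4 CPM in WT noCys. *Serpina1e* was at 179.4, 149.8 and 172 CPM in KO noCys but ranged from 342.3 to 6645 CPM in WT noCys and from 140.4 to 3583 CPM in KO CTR, so KO noCys and KO CTR overlapped. It was also lower in KO CTR than in WT CTR without overlap, though not called (-2.21 ± 0.92). Its change without cysteine was not called different between genotypes (-2.44 ± 1.34, edgeR adjusted p = 0.284). The xenobiotic-metabolizing *Cyp2f2* fell by 1.10 on the log2 scale, *Hsd11b1*, which reactivates glucocorticoids, by 0.76 and *Cyp2d9* by 0.62. 14 tested male-biased genes were not called, including *Mup1* (-4.75 ± 1.79, edgeR adjusted p = 0.0528) and *Mup11* (-1.21 ± 0.45, edgeR adjusted p = 0.0509). 3 of the 14 were above 0, *Mup21* (0.70 ± 0.37), *Cyp4a12b* (0.67 ± 0.30) and *Mup12* (0.57 ± 1.10), the first 2 without overlap between the groups. *Gstp1*, a male-biased glutathione transferase, did not differ detectably from WT noCys (-0.03 ± 0.19) and rose against KO CTR, at 912.1 to 1043 CPM against 327 to 649 CPM (1.04 ± 0.18, edgeR adjusted p = 0.000551).

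In KO noCys against WT noCys, female-biased genes did not move as a body in the direction of *Cux2*. *Cyp2a4*, a steroid hydroxylase, rose from 0.642 to 1.06 CPM in WT noCys to 3.50, 2.95 and 2.12 CPM in KO noCys (1.77 ± 0.35, edgeR adjusted p = 0.000807). The other 5 called genes fell: *Cyp2b10* (-3.45 ± 0.86), *Abcd2* (-2.03 ± 0.60), *Ntrk2* (-1.84 ± 0.64), *Slco1a4* (-1.31 ± 0.25) and *Rtn4* (-0.64 ± 0.20). Of these, the calls of *Ntrk2*, *Rtn4* and *Abcd2* were lost in 5, 4 and 2 of the 21 fits that left out a library, each time including the fit without KO noCys replicate 3. *Abcd2* was low in KO on the control diet too, with means of 2.98 CPM in KO CTR and 2.14 CPM in KO noCys against 10.1 CPM in WT CTR and 7.63 CPM in WT noCys, and its change without cysteine was not called different between genotypes (-0.34 ± 0.80, edgeR adjusted p = 0.845). The list's median in that comparison was -0.32, with 7 of its 13 tested genes below 0, and 11 of its 24 genes were too low to test. Against KO CTR its median was -0.738, with 8 of 13 below 0. In WT noCys against WT CTR, where *Cux2* was also higher, the median was 0.385, with 2 of 13 below 0 and 0 called. For KO CTR against WT CTR it was 0.683, with 3 of 13 below 0 and 0 called. *Cyp2b10* and *Cyp2a4* answer to other signals as well, the former to the receptor CAR.

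**Figure D4:**
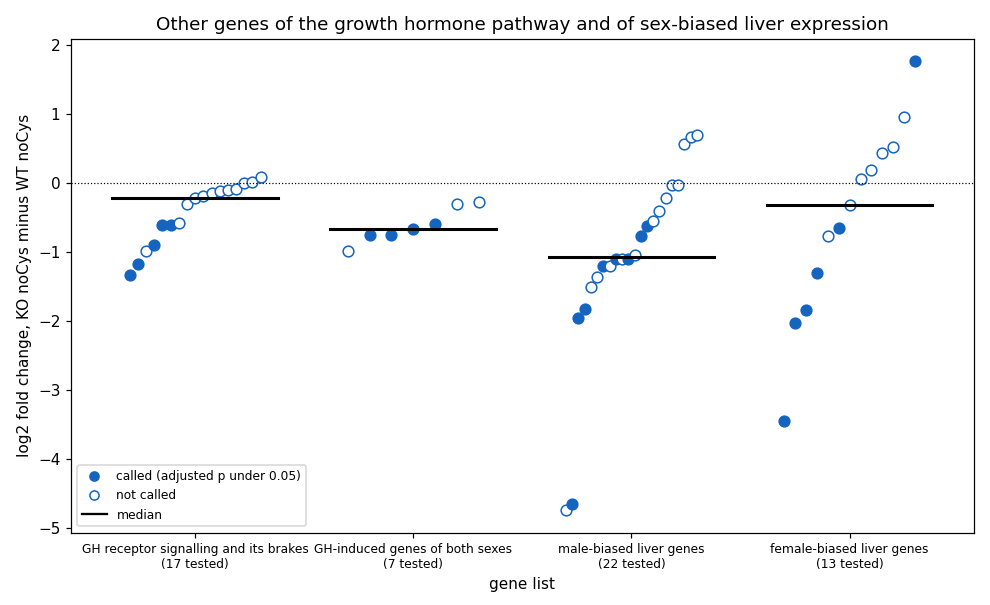
log2 fold change of KO noCys minus WT noCys (vertical axis) for each tested gene of the 4 lists (horizontal axis); filled points were called, bars are medians. All 7 genes induced in both sexes lie below 0, and the female-biased list holds both the highest point (*Cyp2a4*, 1.77) and a point at -3.45 (*Cyp2b10*).

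These falls came with lower levels of some hepatocyte markers. Of 7 markers measured, *Alb* (-1.15), *Ttr* (-1.03) and *Serpina1c* (-1.88) fell in KO noCys against WT noCys, while *Apoa1* (-0.54), the nuclear receptor *Hnf4a* (-0.10) and the urea cycle genes *Cps1* (0.03) and *Ass1* (-0.14) were not called. The summed level of the 7 was 43900 to 65900 CPM in KO noCys, 84400 to 95300 CPM in WT noCys and 71100 to 77300 CPM in KO CTR. Taken relative to that sum, all genes shifted upward by a median of 0.98 on the log2 scale against WT noCys. On that scale *Selenbp2* was still at -4.09 and *Hsd3b5*, *Elovl3* and *Mup3* at -0.84, -0.67 and -0.60, while *Slco1a1* stood at 0.14, *Mup20* at 0.03 and *Socs2* at 0.32, and *Cux2* at 2.87. *Cyp4a12a* was at 1.74 and *Bcl6* at -0.07. Against KO CTR all genes shifted upward by a median of 0.65. There *Selenbp2* was at -4.51, *Hsd3b5* at -1.74, *Elovl3* at -1.16 and *Mup3* at -0.61. *Socs2* stood at -0.66, *Mup20* at -0.47, *Slco1a1* at -0.35 and *Cyp4a12a* at -0.31, with *Bcl6* at 0.55 and *Cux2* at 5.14. *Ghr* stood at -0.18 with overlapping groups against WT noCys and at -0.49 without overlap against KO CTR. Of the 23 called list genes, 12 were below 0 on that scale and 11 above, among the latter *Igf1* (0.40), *Igfals* (0.21) and *Jak2* (0.40). The part of the markers in these differences was not tested. The 4 adipocyte markers summed to 9.56 to 30.5 CPM in KO noCys and 4.12 to 6.64 CPM in WT noCys. The only one of the 4 high enough to test, *Cidec*, a lipid droplet gene that liver can also express, was called higher against WT noCys (1.48) and KO CTR (1.13), while *Adipoq* was at 0 in 16 libraries, *Plin1* in 17 and *Lep* in all 21. Markers of cholangiocytes, Kupffer cells and leukocytes, and endothelial cells had 2 of 5, 1 of 6 and 2 of 5 genes called lower in KO noCys against WT noCys and none higher, and the 5 stellate cell markers had none called. Of 11 tested clock genes, 4 were called lower in that comparison, and their part was not tested.

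In the other comparisons few genes were called over the whole table, and few of the lists. On the control diet (0.32% of all genes called) *Gstp1* was the 1 list gene called between genotypes (-0.89 ± 0.18 in KO, edgeR adjusted p = 0.0398). That call was lost in 14 of the 21 fits that left out a library, among them those without any 1 of the 3 WT CTR libraries (edgeR adjusted p 0.0993 to 0.129). Removal of cysteine from WT animals gave 0 calls of 58 by edgeR, 6 at an unadjusted p under 0.05, 2 by DESeq2 and 1 by limma-voom, where calls over all genes were 95 by edgeR (0.661%), 305 by DESeq2 and 533 by limma-voom. Removal of tryptophan from KO animals gave 0 by edgeR, 9 unadjusted, 2 by DESeq2 and 3 by limma-voom, where all genes gave 269 (1.87%), 606 and 610. In WT noTrp against WT CTR (3.19% of all genes called), *Socs3*, an inflammation-induced brake, rose from 6.42 to 11.3 CPM to 60.2 and 26.9 CPM (2.37 ± 0.33, edgeR adjusted p = 0.00233) and *Gstp2* rose (2.13 ± 0.58), while *Cyp4a12b* (-1.67 ± 0.39) and *Ghr* (-0.60 ± 0.15) fell. *Gstp2* rested on WT noTrp replicate 1, without which its value was 0.13, and the *Ghr* call was lost without any 1 library of either group (edgeR adjusted p 0.0647 to 0.206). The *Cyp4a12b* call was lost without WT CTR replicate 1 or 3 or either WT noTrp library (edgeR adjusted p 0.0504 to 0.18), with limma-voom (0.175) and in a fit to the 2 groups alone (0.0619). In KO noTrp, *Socs3* was lower than in WT noTrp (-1.75 ± 0.28, edgeR adjusted p = 0.0061), and without WT noTrp replicate 1 the value was -1.05 and the adjusted p 0.332.

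The genes most like each member were found over the 21 libraries by the root-mean-square difference of centred log2 CPM, in which a smaller value is a closer match. *Mup3* was followed most closely by *Otc* and *Pigr* (0.20 each), *Slco1a1* by *Sult2a8* (0.29), *Mup20* by *Mup-ps19* (0.31), *Socs2* by *Relb* (0.48), *Cyp4a12a* by *Cyp4a12b* (0.53) and *Elovl3* by *Pitx3* (0.55), which overlaps it on the opposite strand. *Hsd3b5* had *Nudt7* (0.62) and *Slco1a1* (0.64) among its nearest 3, and *Elovl3* had *C6* (0.60). The nearest values were 0.88 for *Bcl6*, 1.04 for *Selenbp2* (*Serpina4-ps1*) and 1.57 for *Cux2* (*Cdkn1a*). The measure grows with a gene's own SD over the libraries, which was 2.13 for *Selenbp2* and 2.29 for *Cux2* against 0.55 for *Mup20*, so these values do not rank the members.

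Several of the 10 share sequence with relatives. As the share of 61-base stretches of their transcripts found in another gene's transcripts, *Mup20* had 46.8% (mostly with *Mup-ps19*), *Cyp4a12a* 44.3% (*Cyp4a12b*), *Selenbp2* 36.3% (mostly *Selenbp1*), *Hsd3b5* 16.4% and *Mup3* 8.44%, and the other 5 had under 4 in 100. Counts of the first 3 are therefore less certain. Among the list genes this share was measured only for *Cyp4a12b*, so how far reads of the others, such as the listed *Mup* genes, are shared is not known here. *Selenbp1* was at 164.1 to 191.4 CPM in KO noCys and 190.7 to 213.2 CPM in WT noCys and was not called (-0.18 ± 0.13, edgeR adjusted p = 0.331). *Cyp4a12b* had the same sign as *Cyp4a12a* in KO noCys against WT noCys (0.67 ± 0.30) and in WT noTrp against WT CTR.

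The 10 genes are placed here on GRCm38. *Selenbp2* is at chr3:94693556-94704413 and *Hsd3b5* at chr3:98618634-98630252. *Mup20* (chr4:62050234-62054158) and *Mup3* (chr4:62083476-62087342) are in the major urinary protein cluster, and *Cyp4a12a* is at chr4:115299046-115332815. The others are *Cux2* at chr5:121856366-122050102, *Slco1a1* at chr6:141907282-141946962, *Socs2* at chr10:95385362-95417180, *Bcl6* at chr16:23965052-23988852 and *Elovl3* at chr19:46131897-46135694. All are annotated as protein-coding, and on the opposite strand *Pitx3* overlaps *Elovl3* and *Gm37419* overlaps *Bcl6*.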

How the data were processed

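Liver poly(A) RNA was extracted with TRIzol, made into libraries with a NEBNext Ultra kit and sequenced from both ends. Per the study and the submitters' processing notes, the authors aligned reads to GRCm38 with HISAT2 2.1.0 and counted them with HTSeq 0.11.0; the deposited values are raw counts per gene. The annotation release and strand setting are not given in the sources used here, so reads of *Elovl3* and *Bcl6* cannot be told apart from those of genes overlapping them on the opposite strand. 1 column could be matched to no sample and was left out.

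Groups and replicate numbers came from sample titles. Symbols came from GENCODE M21, which matched 45143 of 46078 identifiers (the other 935 held 0.0715% of counts). Counts were tested with edgeR 4.0.16 (R 4.3.3): filterByExpr (minimum count 10, total 15), TMM scaling (factors 0.883 to 1.14), 1 model of 6 groups over 21 libraries and the two-sided quasi-likelihood F-test, with Benjamini-Hochberg adjustment over 14370 genes and calls under 0.05. SE is the log2 fold change over the root of F. CPM are TMM-scaled, and RPKM divide them by exon length. Per the study, the genotypes were not housed together during calorie restriction, and p-values measure the spread between libraries. Depth bears on *Cux2*, whose WT CTR libraries held few counts.

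The test was checked on simulated data, where edgeR called 62% of 2-fold and 84% of 4-fold changes placed in KO noCys against WT noCys. Alternatives were DESeq2 1.42.0, limma-voom (limma 3.58.1) with quality weights, RLE factors, library totals alone, no filter, a fit to the compared groups alone, a replicate block and leaving out each library. Values relative to hepatocyte markers were added after seeing the data; 7 of 8 listed markers matched a symbol. The 10 genes, the 4 lists and the tests were chosen with earlier results of these data known. Named list genes were those called in KO noCys against WT noCys, at most 5 each way per list by size, at most 3 each way in other comparisons, and *Ghr*, *Jak2*, *Stat5a*, *Stat5b* and *Igf1* always. Further list genes, such as *Cyp2d9*, *Cyp2f2* and *Hsd11b1*, were named after their values were seen. RefSeq promoter windows were available for 6 of the 10 genes.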

Additional observations from a re-analysis of the deposited data

Results flagged for a closer look

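*Cux2* in KO noTrp replicate 1, at 48.4 CPM, stood apart from the other 4 libraries of its group by Dixon's test on CPM, the gap being 0.869 of the group's range. On the log2 scale, where the test was not run, it was at 5.60 and the other 4 at -0.65 to 2.79. Replicate 1 was the only such library in 30 gene and group combinations tested, where chance alone flags about 1 in 20. WT CTR, KO noCys and WT noTrp, with 3, 3 and 2 libraries, were too small for the test. Without KO noTrp replicate 1, the log2 fold change of *Cux2* in KO noTrp against KO CTR was 0.01 in place of 1.96.

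The effect of removing cysteine differed between the genotypes for 7 of the 58 list genes by edgeR's interaction test at an adjusted p under 0.05 (7.44% of all tested genes were called). The difference, KO minus WT, was -0.92 on the log2 scale for *Ghr*, -1.27 for *Nox4*, -1.06 for *Cyp2f2* and -1.57 for *C6*, and these 4 calls held in the 7 other settings and the 21 fits that left out a library. For *Slco1a4* it was -1.42, and the call was lost without WT CTR replicate 1 (adjusted p = 0.0543) or KO noCys replicate 3 (adjusted p = 0.0701) by edgeR. For *Mup17* it was -2.66 and for *Gstp1* 0.87, and these calls were lost in 12 and 14 of the 21 fits, and both with the replicate block (-2.40, adjusted p = 0.0818, and 0.92, adjusted p = 0.0593, by edgeR).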

How the results depend on the processing

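No call of a list gene changed sign with another tool, scaling by counts, filter, block or library left out. Relative to the summed hepatocyte markers, a scaling chosen after seeing the data that moved the median of all genes by 0.98, the KO noCys against WT noCys value turned positive for *Slco1a1* (0.14) and *Socs2* (0.32), neither of them called, and among called genes for *Mup20* (0.028), *Jak2* (0.40), *Socs7* (0.40), *Sirpa* (0.082), *Igf1* (0.40), *Igfals* (0.21), *Serpina3k* (0.33), *Serpina3n* (0.28), *Cyp2d9* (0.37), *Hsd11b1* (0.22) and *Rtn4* (0.33), and against KO CTR for *Jak2* (0.039), *Socs7* (0.11), *Serpina3k* (0.024), *Hsd11b1* (0.20) and *Rtn4* (0.016). Library totals alone raised the median of all genes by 0.20 in KO noCys against WT noCys and the share of calls that were higher from 52.5% to 80%.

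The 23 list calls in KO noCys against WT noCys became 13 without KO noCys replicate 3, and *Jak2*, *Socs1*, *Socs7*, *Igf1*, *Serpina3n*, *Susd4*, *Obp2a*, *Abcd2*, *Ntrk2* and *Rtn4* lost theirs, though the log2 fold changes of *Jak2* (-0.61), *Socs7* (-0.61) and *Ntrk2* (-1.93) hardly moved with fewer samples, and calls over all genes went from 4055 to 2358. Leaving out 1 library gave 13 to 24 calls there, 7 to 22 (main 19) against KO CTR, 4 to 17 (14) against KO noTrp, 4 to 10 (7) for the genotype difference, 0 to 1 (1) in KO CTR against WT CTR, 0 to 5 (1) in KO noTrp against WT noTrp, 0 to 2 (0) in KO noTrp against KO CTR, 0 to 1 (0) in WT noCys against WT CTR and 1 to 6 (4) in WT noTrp against WT CTR. Against KO CTR and KO noTrp the lowest counts came without KO noCys replicate 3, and 11 and 8 were left without replicate 4. Counts under other tools moved as follows. In KO CTR against WT CTR, limma-voom gave 2, and library totals, the block and the 2 groups alone 0. In KO noTrp against WT noTrp, DESeq2 and library totals gave 2, no filter 3, and limma-voom and the 2 groups alone 0. In KO noTrp against KO CTR, DESeq2 gave 2, limma-voom 3 and no filter 1. In WT noCys against WT CTR, DESeq2 and no filter gave 2, limma-voom 1 and the 2 groups alone 3. In WT noTrp against WT CTR, limma-voom gave 1, the block 2 and the 2 groups alone 0. The genotype difference had 14 by limma-voom, where calls over all genes went from 1069 to 2179. Calls over all genes moved too without KO noCys replicate 3 against KO CTR (2906 to 1379) and KO noTrp (2000 to 570) and for the difference (1069 to 430). In WT noCys against WT CTR they went from 95 to 1 without WT CTR replicate 3 and to 14 with the block. Without any 1 WT noCys library, 12 to 19 were left there. In WT noTrp against WT CTR they went from 459 to 146 without WT CTR replicate 3 and to 191 with the block. The cause was not tested.

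Replicate numbers were not taken to pair the samples, since of 23 same-numbered pairs of groups, 5 had a correlation of deviations over 0.1 (range -0.355 to 0.353), among them both pairs of KO noTrp and WT noTrp (0.353 and 0.126). With the replicate block, list calls were 23 in KO noCys against WT noCys, 0 in KO CTR against WT CTR, 2 in WT noTrp against WT CTR and 5 for the genotype difference, where *Mup17* and *Gstp1* lost theirs, as did *Ntrk2* (-1.73) in KO noCys against WT noCys.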
